A study of Mus musculus with 2 samples.

Results

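The Cep genes encode proteins of the centrosome, the body that organises microtubules in animal cells and whose centrioles become the base of the cilium. In dividing cells the centrioles duplicate in each cycle and the centrosomes form the poles of the spindle. The name marks the place of the protein and not a common ancestor, and the members differ widely in sequence. Some build or cap new centrioles, some form the appendages that dock a centriole to the membrane, and others tie centrioles together, guard the ciliary gate or serve the midbody of dividing cells.

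The members were all protein-coding genes of the RefSeq annotation whose symbol is Cep followed by a digit, 38 of the 21521 such genes placed on X or 1 of the 19 autosomes. They lay on 16 chromosomes. The symbol alone chose them, but the family was taken up because earlier results of these data had shown it at loop anchors, so its share there is a description with no test. Genes that once carried a Cep number and now have another symbol, such as Cntrl and Haus2, were not members.

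Hi-C, which records pairs of DNA fragments that lie near each other in the nucleus, had been run on HPC5, a mouse line of haematopoietic progenitors derived from bone marrow. There was 1 group, with genotype Etv6+/+, and 2 replicates, each fixed in 2% formaldehyde for 10 min. Etv6 encodes a repressor of the ETS family, and no mutant or treated sample was compared. All samples came from 1 line, nothing says whether the replicates were separate cultures, and the protein or RNA level of no gene was measured.

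The lists give chromatin loops, each a pair of anchors of 5, 10 or 25 kb, and contact domains. The medium setting held 1276 loops in replicate 1 and 5729 in replicate 2, and the high setting 202 and 3354. The high numbers equal those of the medium loops on 5 or 10 kb anchors, and no Cep loop on 25 kb anchors was in the high lists. The high setting is thus read as a choice of anchor width and not as a stricter call. The domain lists held 3 and 339. Each loop carries a number tagged n, which the files do not define, and sequencing depth is unknown. A gene was at an anchor when its left or right end (the lower or higher coordinate on mm10) lay inside it, and a loop counted as found in the other replicate when a loop there had both anchor midpoints no more than 20 kb away.

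Of the 38 Cep genes, 17 had an end in an anchor of the medium lists, which is 44.7% (95% Wilson interval 30.1 to 60.3%, for counting error only), against 22.5% of all protein-coding genes. In replicate 1 there were 6 (15.8% against 6.67%) and in replicate 2 there were 16 (42.1% against 19.8%), with 5 genes at anchors in each. At loops found in both replicates there were 6 Cep genes (15.8% against 5.83%). For Cep63 and Cep120 among them, the matched loop of the other replicate held no end of the Cep gene. Under the high setting 10 genes were at an anchor (26.3% against 9.53%). At anchors of 5 kb, the narrowest, there were 6 (15.8% against 2.12%), a class that was singled out after its values were seen and that replicate 2 alone contained.

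**Figure D1:**
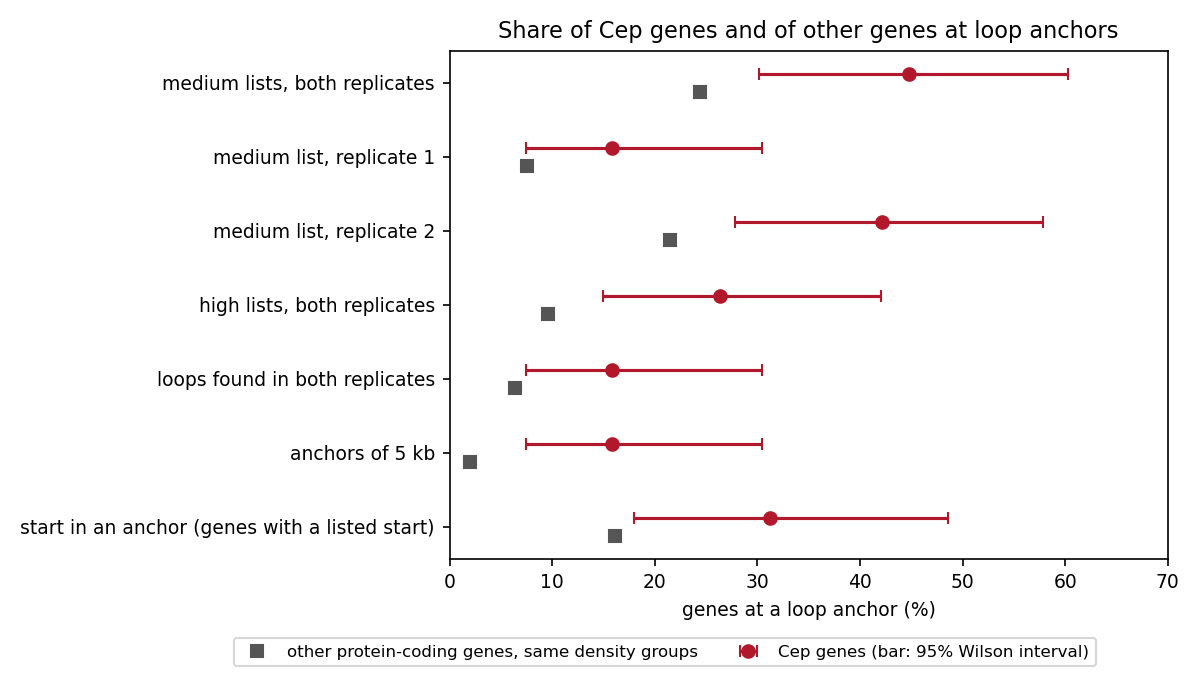
Share of Cep genes (red, with a 95% Wilson interval) and of other protein-coding genes weighted to the same density groups (grey squares) that lay at a loop anchor, in percent, for 7 choices of loops or gene position. The red point lies to the right of the grey square in each row, at 44.7 against 24.4% in the first and at 15.8 against 7.54% for replicate 1. The interval for replicate 1 reaches down to 7.44%.

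The gap was nearly as large beside genes of like density. Density was the number of protein-coding genes with a midpoint within 500 kb, and its median was 11 for Cep genes and 15 for other genes. Weighted to the Cep genes' place in 10 density groups, 24.4% of other genes were at an anchor, a gap of 20.3 percentage points (5.73 to 35.9 from the interval of the Cep share). The Cep genes were also longer, with a median of 42.7 kb against 17.3 kb. With density and length matched together the share of other genes was 27.4%, and the gap 17.4 points.

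**Figure D2:**
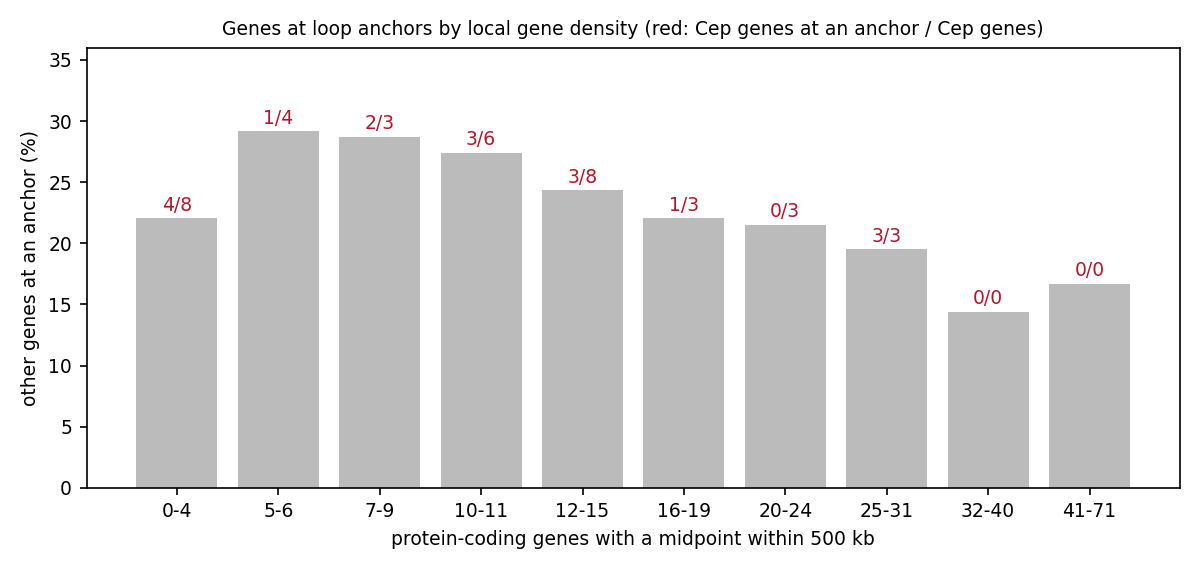
Bars give the share of other protein-coding genes with an end in a medium-setting anchor, in percent, in 10 groups by the number of protein-coding genes within 500 kb. Red fractions count the Cep genes at an anchor over the Cep genes in that group, 4 of 8 in the sparsest group, 3 of 3 in the group with 25 to 31 neighbours and 0 of 3 in the group with 20 to 24. The other groups with Cep genes held 1 of 4, 2 of 3, 3 of 6, 3 of 8 and 1 of 3 in order of density, and the 2 densest held none.

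By role the counts were as follows, where 22.5% of all protein-coding genes were at an anchor. Of 12 members listed for centriole duplication and length 9 were at an anchor, and of 9 listed for appendages and cilium start 4 were. None of the 5 listed for the ciliary transition zone and axoneme was, namely Cep290, Cep162, Cep41, Cep131 and Cep126. Of the 2 cohesion genes Cep250 was and Cep68 was not, and the midbody gene Cep55 was. Of 7 listed only for association with microtubules or centrosomes 2 were. The groups are small, they were drawn up with earlier results known, and the difference between them was not tested.

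In all, 25 loops touched the 17 genes, 7 in replicate 1 and 18 in replicate 2. Their median span, the distance between anchor midpoints, was 125 kb (quartiles 95 and 175 kb), against 150 kb for all 7005 loops. There were 9 genes with 1 loop, 7 with 2 and only Cep55 with 3, where a loop found in both replicates counts once in each. Of the 7 loops in replicate 1, 6 were found in replicate 2 (85.7%, against 80.6% of all its loops), and of the 18 in replicate 2, 5 were found in replicate 1 (27.8% against 18.2%). A protein-coding gene end lay at the other anchor of 12 of the 25 loops (48%). Over all loops, 1147 of the 3975 with a gene end at any anchor had one at both (28.9%). That figure counts each loop once, whereas a loop with genes at both anchors can be reached from either of them. The bases are unlike, so the difference is not read as an excess at Cep genes. A gene end lay at the other anchor of 10 of 13 Cep loops on 25 kb anchors and 2 of 12 on narrower ones. The same split was not made over all loops, so it is not read as a trait of Cep genes.

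**Figure D3:**
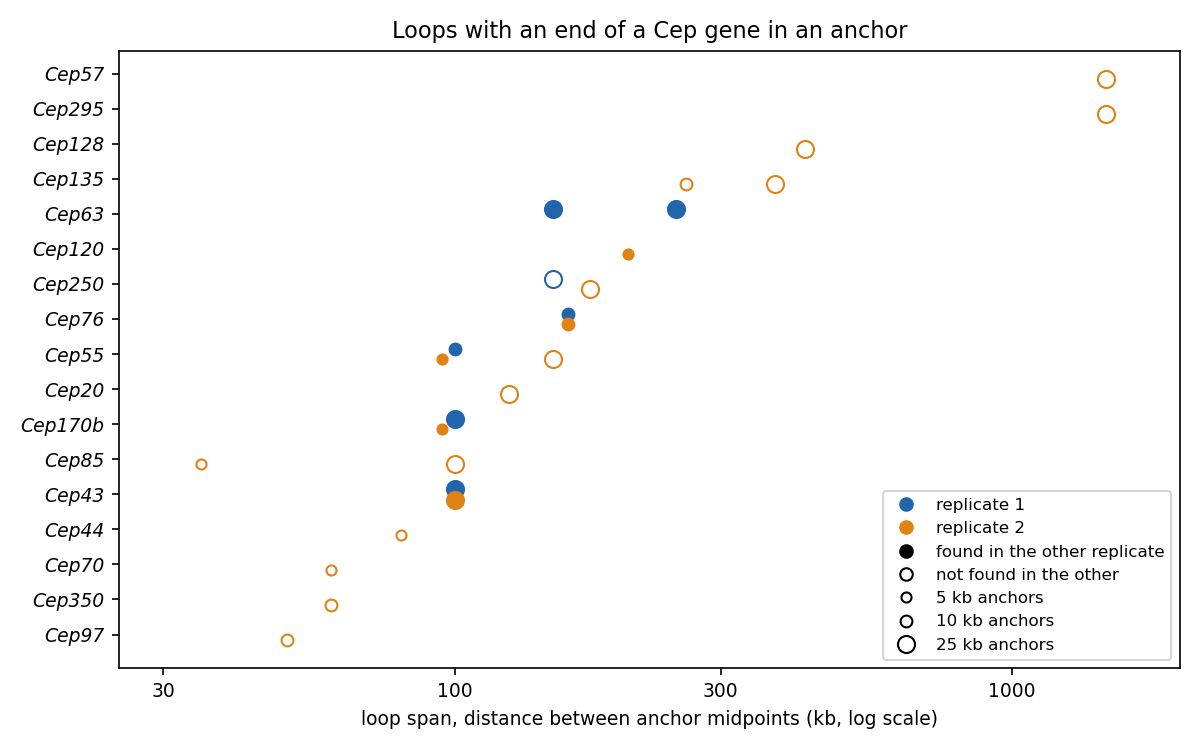
Span of every loop with an end of a Cep gene in an anchor, in kb on a log scale, by gene. Blue marks replicate 1 and orange replicate 2, filled symbols a loop found in the other replicate and open ones a loop that was not, and symbol size the anchor width. Most spans lie between 50 and 250 kb, and the loop that joins Cep57 to Cep295 stands apart at 1475 kb.

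The start windows below show the sequence of some of the 10 Cep starts that lay in an anchor. They are the 150 bases before the outermost listed start, from RefSeq on GRCm38.p6, the assembly of mm10, written 5′ to 3′ on the strand of the gene. Capitals mark exact matches, on either strand, to any of 6 motifs. In these windows they are the CCAAT box (CCAAT, or ATTGG on the other strand) and the core of the CTCF motif (AGGGGGC), CTCF being the protein best known for holding loop anchors. Cep55 and Cep63 are shown because their starts lay in anchors of loops found in both replicates. Cep57 is shown for its loop to Cep295, and Cep135 because it held both motifs, as did Cep85, which is not shown. The windows printed are chr19:38054834-38054983 (+), chr9:102626125-102626274 (-), chr9:13827108-13827257 (-) and chr5:76588549-76588698 (+).
Cep55: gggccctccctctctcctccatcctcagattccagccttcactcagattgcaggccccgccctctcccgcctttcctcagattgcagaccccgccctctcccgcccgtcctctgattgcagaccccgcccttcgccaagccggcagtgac
Cep63: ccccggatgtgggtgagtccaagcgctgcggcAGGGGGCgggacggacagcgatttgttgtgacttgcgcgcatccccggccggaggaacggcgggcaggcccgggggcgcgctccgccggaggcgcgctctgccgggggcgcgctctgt
Cep57: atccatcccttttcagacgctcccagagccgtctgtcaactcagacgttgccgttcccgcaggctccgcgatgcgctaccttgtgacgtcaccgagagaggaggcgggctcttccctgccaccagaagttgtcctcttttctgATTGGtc
Cep135: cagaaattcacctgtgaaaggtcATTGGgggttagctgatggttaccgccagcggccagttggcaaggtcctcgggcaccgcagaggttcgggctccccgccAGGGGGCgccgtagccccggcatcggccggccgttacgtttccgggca

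None of the 6 motifs stood in the Cep55 window. Over the 250 bases before the start, the CTCF core was in 7 of the 32 Cep genes with a listed start (21.9%) and in 11.5% of 17274 protein-coding genes. The 7 were Cep112, Cep135, Cep19, Cep63, Cep68, Cep83 and Cep85, of which 3 had a start in an anchor. The CCAAT box was in 15 of 32 (46.9% against 36.8%), and the NRF1 core (CGCATGC) in 4 (12.5% against 3.83%). Of the 10 Cep genes with a start in an anchor, 5 held the CCAAT box and none the NRF1 core. The Cep windows were richer in G and C, with a median of 61.4% against 55.6%, and the part of base composition in these shares was not tested. The ETS core (CCGGAAG), the kind of site ETV6 and its relatives bind, was in Cep128, Cep295 and Cep95, or 9.38% against 9.26%. The cell cycle homology element (TTTGAA) was in 3 (9.38% against 14.5%) and the YY1 core (AAGATGG) in 1, Cep89 (3.12% against 4.12%). None of the motifs lies within another. A match is a string of letters and not a measured binding site.

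Cep55 had the most listed loops, but 1 of its contacts was listed in both replicates and so counted once in each. Its protein gathers at the midbody and recruits the machinery that severs daughter cells at the end of division. The gene occupies chr19:38054970-38074425 on the plus strand, so its left end is its start. In replicate 1 the start lay in the anchor 38050001 to 38059999, joined over 100 kb to 37950001 to 37959999, with n = 18. In replicate 2 the same contact was called on narrower anchors, 38050001 to 38054999 and 37955001 to 37959999, over 95 kb with n = 25. The gene's left end lies only 0.029 kb inside that 5 kb anchor, which holds its listed start 38054984 and misses the other, 38055041. The far anchor held no protein-coding gene end in either replicate. Replicate 2 added a loop of 150 kb in the other direction (n = 66), from an anchor that held the whole gene to one at Fra10ac1, and this loop had no match in replicate 1.

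Cep63 is the scaffold that places Cep152 on the mother centriole at the start of duplication. It lies at chr9:102586578-102626564 on the minus strand, and its start shared a replicate 1 anchor, 102625001 to 102649999, with the start of Anapc13, a subunit gene of the anaphase-promoting complex. The listed starts of these genes are 172 bases apart and point away from each other. Loops of 150 kb (n = 20) and 250 kb (n = 24) ran to the right from there to anchors without a gene end. Replicate 2 listed both, also over 150 and 250 kb with n of 25 and 20, but from the 10 kb anchor 102630001 to 102639999, which held the right end of Anapc13 and no end of Cep63. The loops thus recurred while the gene at the anchor changed with its width. Its partner gene Cep152 was 34.8 kb from the nearest anchor.

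Cep57 and Cep295 lay at opposite anchors of 1 loop, the only one that joined 2 Cep genes. Cep57 takes part in organising the material around centrioles, and Cep295 helps new centrioles mature into centrosomes. The anchors were 13825001 to 13849999 and 15300001 to 15324999 on chromosome 9, 1475 kb apart, with n = 17 in replicate 2 and no match in replicate 1. In replicate 2, 125 loops reached 1000 kb or more and 37 were longer than this one. Only 0.0842% of the 25 kb loops of replicate 2, taken over all spans, had a lower n, and loops of like span were not compared. The Cep57 anchor held its start, with that of Fam76b 609 bases away on the other strand. The Cep295 anchor held its left end, which on the minus strand is its far end and not its start, together with ends of Taf1d and 4931406C07Rik. The loop therefore joined neighbourhoods of several genes.

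Cep135, a gene of the cartwheel on which new centrioles form, had loops of 260 kb (n = 18) and 375 kb (n = 49) in replicate 2, both from its start and across the gene. The gene lies at chr5:76588653-76646466. The longer loop ended at an anchor with ends of Ppat and Paics, neighbours that encode enzymes of purine synthesis, and of Srp72, and the shorter at an anchor with no gene end. Cep97, whose protein caps centrioles together with Ccp110, lies at chr16:55899888-55934848. A loop of 50 kb (n = 35) ran from its start across the whole gene to 55880001 to 55889999. Cep44, whose protein helps centrioles to become centrosomes, lies at chr8:56531516-56550876, and its left end, opposite its start, was joined over 80 kb (n = 19) across the gene to an anchor without a gene end. These loops had no match in replicate 1.

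Cep85, a gene for a protein that binds the duplication factor Stil, had 2 loops in replicate 2 and none in replicate 1. It lies in a gene-dense stretch, at chr4:134129858-134187085 with 28 protein-coding genes within 500 kb, the most of any Cep gene. A 35 kb loop (n = 15), as short as any in the lists, joined its left end, which it shared with Ubxn11 and Sh3bgrl3, to an anchor at Crybg2 and Cd52, a leukocyte surface antigen gene. That end lay 0.141 kb inside the 5 kb anchor. From its start a loop of 100 kb (n = 89) ran to Pdik1l. Both anchors of each loop thus held gene ends.

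Of the 14 genes at an anchor that had a listed start, 10 had a start in an anchor (71.4%), against 64.3% of 3775 other genes. The exceptions were Cep43, Cep44, Cep170b and Cep295. Starts that point away from another gene's start, within 1000 bases on the opposite strand, were listed for 9 of 32 Cep genes (28.1%), against 8.59% of all 17274. Besides Cep63 and Cep57 they were Cep89 with Faap24, Cep44 with Fbxo8, Cep57l1 with Sesn1, Cep290 with Tmtc3, Cep95 with Ddx5, Cep19 with Pigx, and Cep170b with the predicted gene Gm46382. Of the 9 Cep genes with such a start 4 were at an anchor, and of the 23 without it 10 were. Among other genes the shares were 26.7 and 21.4%. With density and paired starts matched together the gap between Cep genes and others was 18.03 points.

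Cep120 and Cep76 on chromosome 18, both listed for duplication, had no listed start here. Cep120 promotes centriole growth, and Cep76 holds back the re-duplication of centrioles. Cep76, at 67616964 to 67641355, shared the anchor 67610001 to 67619999 with Spire1, an actin nucleator gene. The loop from it, of 160 kb to 67450001 to 67459999, had identical 10 kb anchors in both replicates, with n = 15 in replicate 1 and n = 40 in replicate 2. Cep120, at 53681723 to 53745636, had its right end in the 5 kb anchor 53745001 to 53749999 of a 205 kb loop in replicate 2 (n = 17). The matching replicate 1 loop, of 200 kb with n = 32, had the neighbouring anchor 53750001 to 53774999, which missed the gene, and its other anchor held an end of Csnk1g3. This pair was matched at 20 kb and not at 10 kb, the only Cep loop lost at that distance. Cep192, which recruits the duplication kinase Plk4, lies 159 kb beyond Cep76 and was 25.1 kb from the nearest anchor.

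Among the genes for appendages and the start of the cilium, Cep43 had the best repeated loop. Its protein, also called FOP, sits near the appendages and helps to start the cilium. The gene lies at chr17:8165143-8196477 on the plus strand, and its right end, opposite its start, contacted, 100 kb away, an anchor at Mpc1, a mitochondrial pyruvate carrier gene. The anchors, 8175001 to 8199999 and 8275001 to 8299999, were the same in both replicates. The n was 31 in replicate 1 and 118 in replicate 2, above 95.7% of the 25 kb loops of all spans there. Of proteins known to act with Cep43, Cep350 also had its gene at an anchor and Cep19 did not.

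Cep350, at chr1:155844964-155973270, had its right end joined over 60 kb (n = 35) to an anchor with ends of Tor1aip1 and Tor1aip2, genes of nuclear envelope proteins. Cep128, a gene for a subdistal appendage protein and 386 kb long, had its start joined over 425 kb (n = 33) to Sel1l, an endoplasmic reticulum quality-control gene, on chromosome 12. Cep20, a relative of Cep43, had its start joined over 125 kb (n = 96) to an anchor without a gene end on chromosome 16. Each of these 3 loops was in replicate 2 only. The genes of the distal appendage itself, Cep83, Cep89 and Cep164, had no end at an anchor in either replicate, and lay 1.38, 197 and 171 kb from the nearest.

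Cep250, whose protein forms the linker between centriole pairs and keeps them together, lies at chr2:155956285-155998900. In replicate 1 its right end was joined over 150 kb (n = 22) to 156125001 to 156149999, which held ends of Nfs1, Romo1 and Rbm39. In replicate 2 its start, in the next 25 kb bin, was joined over 175 kb (n = 73) to the same anchor. The pair was not matched at 20 kb and was matched at 40 kb, and these were the only Cep loops gained at that tolerance.

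Cep170b and Cep70 were the genes at anchors among those listed for microtubule or centrosome association. Cep170b, a relative of the microtubule-binding Cep170 and at chr12:112721514-112746592, had its right end at a loop of 100 kb in replicate 1 (n = 26) and 95 kb in replicate 2 (n = 16). The other anchor held ends of Cdca4 and Gm52009 at 25 kb in replicate 1 and none at 5 kb in replicate 2. Cep70, whose protein binds gamma-tubulin, lies at chr9:99183584-99325879 and had a 60 kb loop (n = 19) in replicate 2 from its left end to 99240001 to 99244999 inside the gene, where its listed start (99243341) lies. Across the 26 pairs of a gene and a loop, 19 loops ran away from the gene, 5 ran across it, that of Cep70 ended within it, and 1 of Cep55 had the whole gene in its anchor.

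The 21 Cep genes without an end at an anchor were a median of 27.7 kb from the nearest one, against 54.8 kb for other such genes. There were 8 within 25 kb (38.1% against 33.7%). Closest were Cep85l at 0.118 kb, Cep68 at 0.577 kb, Cep83 at 1.38 kb, Cep170 at 4.07 kb, Cep162 at 5.54 kb and Cep95 at 8.64 kb. Cep85l, Cep83, Cep170 and Cep162 had an anchor inside the gene that held neither end. Cep131 at 13.1 kb, Cep57l1 at 15.1 kb, Cep192, Cep112 at 25.2 kb, Cep72 at 27.7 kb, Cep152 and Cep290 at 37.5 kb followed. Cep78, Cep295nl, Cep41, Cep19, Cep164, Cep126 and Cep89 were 64.3 to 197 kb away. Loops enclosed 4 of the 21 whole (19.05% against 26.2%), namely Cep170, Cep41, Cep131 and Cep72, all in replicate 2.

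**Figure D4:**
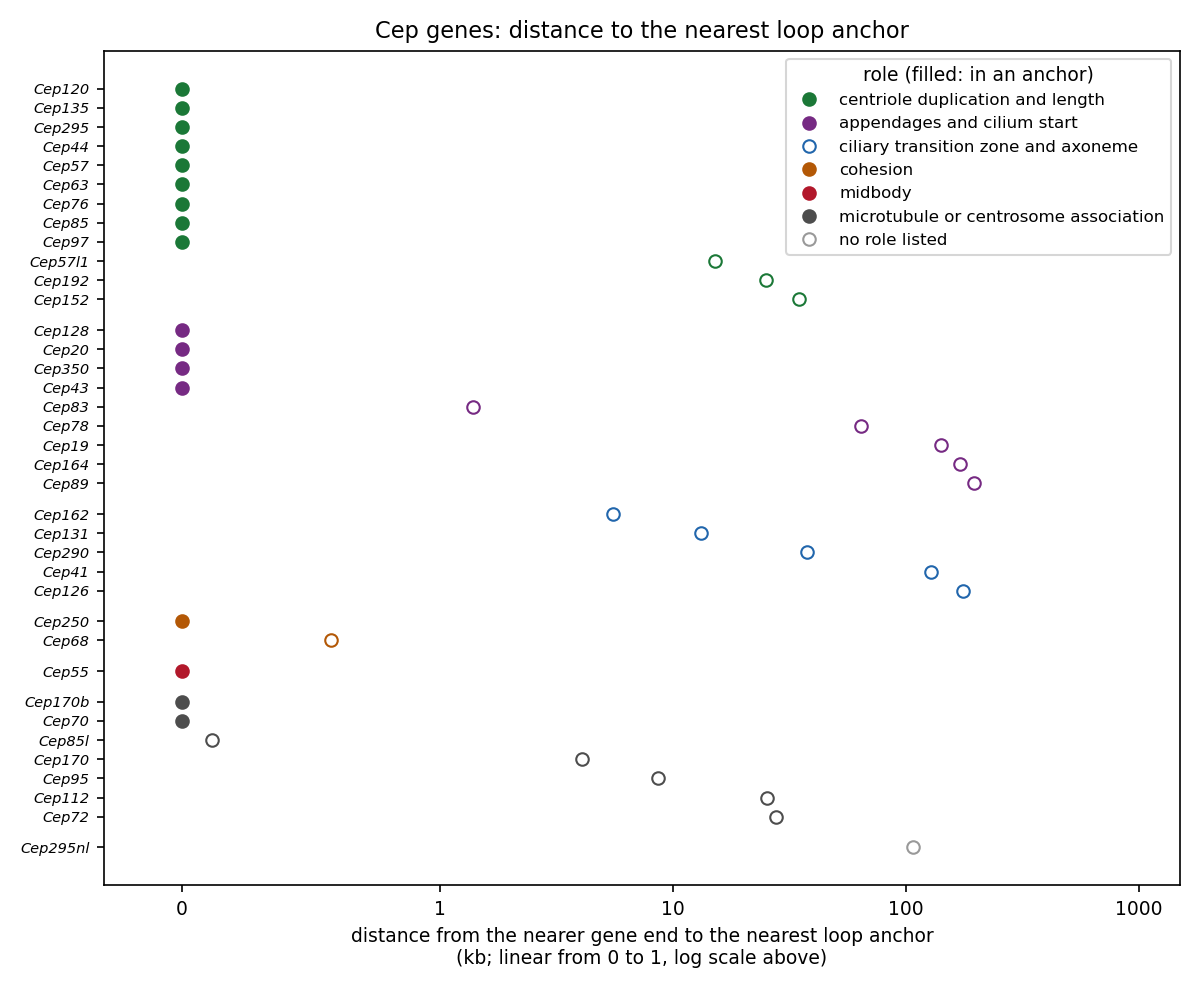
Distance in kb from the nearer end of 37 Cep genes to the nearest medium-setting anchor, on an axis that is linear to 1 kb and logarithmic beyond, grouped by role. Filled symbols at 0 are the 17 genes with an end in an anchor. The 5 genes of the transition zone and axoneme are all open, from 5.54 kb for Cep162 to 176 kb for Cep126.

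Called domains held few genes of any kind, and the Cep counts were near the shares of all protein-coding genes. Only Cep41, a gene for a protein of the ciliary axoneme, lay inside one (1 of 38, against 3.98% of all genes). This replicate 2 domain, chr6:30400001-31035000, was 635 kb long and held 12 protein-coding genes in full, Mest and Klf14 among them. Cep78 alone had an end within 25 kb of a domain boundary, at 24.3 kb (1 of 38, against 3.67%).

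Other genes of the centrosome were nearer to the background. Of 71 found from a list written for comparison, 22 were at an anchor, which is 31.0% (95% Wilson interval 21.4 to 42.5%) against 22.3% for genes of the same density groups. By role they were 7 of 23 for centriole assembly, Stil and Kif24 among them, and 5 of 27 for the pericentriolar matrix and microtubule nucleation. There were also 4 of 5 for cohesion, 3 of 9 for appendages and 3 of 7 for mitotic kinases and spindle. Whether Cep genes and these genes differ was not tested.

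At loops found in both replicates were 6 of the 71 (8.45%, near the 5.83% of all protein-coding genes). Aurka, the mitotic kinase gene, was joined over 70 kb to Rtf2 in replicate 1. Kif11, a spindle motor gene, and Ttbk2, whose kinase removes the Cep97 and Ccp110 cap when a cilium forms, had 100 kb loops with the same anchors in each replicate. Tubd1, the delta-tubulin gene, had one of 100 kb, Tpx2, whose protein activates Aurora A, one of 150 kb to Mcts2, and Nek2, the kinase that dissolves the Cep250 linker, one of 225 kb to Dtl and Ints7. For Aurka and these last 3 the gene end lay in the anchor of the replicate 1 loop.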

How the data were processed

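Hi-C was run on 2 replicates of the HPC5 line with the Arima kit, per the labels' protocols. The deposited lists of loops and domains give positions, a unit of another kind than counts, on mm10, and HiC-Pro 2.11.1 is named in the submitters' processing notes. What called the loops and domains, and what n means, was not given in the sources used here. Depth is unknown, and nothing says whether the replicates were separate cultures.

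Gene positions came from the RefSeq table of mm10, with 345 genes of scaffolds, 110 of them protein-coding, left out. Listed starts and start sequences came from the RefSeq promoter table (GRCm38.p6), which held 17274 of the genes and 32 of the 38 members. Loop positions are printed as deposited and domain starts with 1 base added. The counting was tested on simulated data. Members, roles, motifs and comparison lists were chosen with earlier results of these data known, so no test of the shares was made. Of the 38 Cep genes 37 are named, and 1 enters the counts but is not reported here. Alternatives were the high setting, each replicate, shared loops at 10, 20 and 40 kb, other gene positions and other ways of matching. Wilson intervals cover counting error only. No protein sequences were used here.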

Additional observations from a re-analysis of the deposited data

How the results depend on the processing

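The gap between Cep genes and other genes kept its sign under all 14 alternatives, from 8.25 to 22.9 percentage points. The alternatives re-use the same loops and genes and are not independent of each other. The family was taken up because these data had shown it at anchors, so neither the sign nor an interval is a test. With replicate 1 alone, the Wilson interval of the Cep share (7.44 to 30.4%) reached the density-matched share of 7.54%. The count of Cep genes at an anchor, 17, was 10 under the high setting, 6 at shared loops, 10 of 32 by starts alone and 6 at 5 kb anchors, and 6 to 16 with either replicate left out. That of the other centrosome genes, 22, was 9, 6 and 10 of 58 in the first 3 of these, and 7 to 19 with either replicate left out. The median span of Cep loops was 95 kb under the high setting. Cep loops with gene ends at both anchors, 12, were 2 under the high setting, 3 among shared loops and 3 to 9 by replicate. The Cep loops of the high setting are those on 5 or 10 kb anchors described above, so its values show the effect of leaving out 25 kb anchors. Shared Cep loops, 11, were 4 under the high setting and 5 to 6 by replicate. Cep genes inside a domain were 0 to 1 by replicate. Those near a boundary were 0 within 10 kb, 4 within 50 kb and 0 to 1 by replicate. The 5 kb anchors and the matching on density with paired starts were chosen after seeing the data. No paired analysis was possible because there was only 1 group. Replicate 2 supplied most loops, and loop calling at unknown depth limits every count.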
